A study of Mus musculus with 2 samples.

Results

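Osr1 and Osr2 are the mouse odd-skipped related genes, and both were taken by symbol from the gene tables of 2 single-cell libraries. They are 2 of 27998 genes. Their raw UMIs (unique molecular identifiers, each standing for 1 captured mRNA) were read in the 14596 cells with at most 10% of UMIs in mitochondrial genes. The cells came from the lambdoid junction of embryonic day 11.5 mouse embryos, the part of the upper face at which the nasal and maxillary prominences meet. One library was wild-type C57BL/6J. The other was Crect; ROSA26-lacZ, also labelled C57BL/6J, and is called Crect lacZ here. As background, Crect is a Cre transgene active in surface ectoderm; the labels name no promoter for it. Each library pooled tissue of 4 to 5 embryos, so embryos cannot be told apart and each genotype has 1 library. A difference between the genotypes therefore has no replicate check.

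Odd-skipped proteins are zinc-finger transcription factors, named after a fly segmentation gene. In the mouse Osr1 is required for heart septation and for the kidney, where it acts in intermediate mesoderm, and it marks connective tissue progenitors of the limb. Osr2 is required for growth of the palatal shelves and limits tooth formation to a single row, acting against the Msx1 and Bmp4 pathway in the mesenchyme beside the teeth. Both genes act together in forming synovial joints.

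The feature the pair is known for is a block of zinc fingers, and the coding stretch of Osr1 is shown because it encodes the part of the protein that binds DNA. In GENCODE vM21 (build mm10), Osr1 (ENSMUSG00000048387) is at chr12:9570116-9581500 on the plus strand. Osr2 (ENSMUSG00000022330) is at chr15:35296098-35303305, also on the plus strand. The Osr1 stretch covers codons 177 to 253 of 266, in exons 2 and 3 of 3. It runs through 3 C2H2 fingers, and capitals mark the codons of the zinc-binding cysteines and histidines.
Osr1: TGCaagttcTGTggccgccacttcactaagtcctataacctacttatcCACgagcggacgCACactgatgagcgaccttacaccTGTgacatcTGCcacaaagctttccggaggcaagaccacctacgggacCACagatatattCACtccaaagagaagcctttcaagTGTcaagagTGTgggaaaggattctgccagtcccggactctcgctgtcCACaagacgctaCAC
How far the submitters' counting could assign a read to the wrong gene of the pair was not tested. A long non-coding gene that overlaps the start of Osr1 on the minus strand, 1700022H16Rik, had 0 UMIs in both libraries.

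The wild-type library held 126638790 UMIs in 7966 barcodes and the Crect lacZ library 127765199 in 6894. Kept cells numbered 7909 with a median of 14112 UMIs and 6687 with a median of 17581. The libraries shared 76 barcode sequences. Cell classes were named from marker genes after clustering without Osr1, Osr2 and most genes of the lists used below. Listed genes that were also naming markers stayed in, among them maxillary, nasal, periocular and cartilage genes. Mesenchyme-like cells numbered 6256 in the wild-type library and 5514 in the Crect lacZ library, and ectoderm-like cells 1069 and 805. The libraries differed in makeup: a chondrogenic-like mesenchymal sub-cluster, led by Sox9, had 20 wild-type and 510 Crect lacZ cells. Putative doublets were kept, because membership rested on the mitochondrial limit alone. Intervals below cover counting error only.

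Osr1 was a sparse transcript of the mesenchyme. It had 512 UMIs in the wild-type library and 1247 in the Crect lacZ library, which is 4.05 and 9.87 per 1000000 UMIs (CPM). At least 1 UMI was found in 254 wild-type cells (3.21%) and in 479 Crect lacZ cells (7.16%), and 61.8% and 49.3% of these carriers had a single UMI. The mesenchyme-like class held 95.5% of the Osr1 UMIs in the wild-type library and 97.4% in the Crect lacZ library. The highest count in 1 cell was 10 in the wild-type library and 19 in the Crect lacZ library.

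Osr2 was found in more cells, and not in the mesenchyme alone. It had 1472 UMIs (11.7 CPM) in the wild-type library and 2738 (21.7 CPM) in the Crect lacZ library. Carriers were 739 wild-type cells (9.34%) and 1168 Crect lacZ cells (17.5%), with up to 19 and 26 UMIs in 1 cell. Mesenchyme-like cells held 88.3% and 93.9% of its UMIs, and ectoderm-like cells 10.1% and 5.15%.

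By class, Osr1 stood at 5.45 CPM (95% Poisson interval 4.98 to 5.96) in wild-type mesenchyme and 12.1 CPM (11.4 to 12.8) in Crect lacZ mesenchyme. In ectoderm it was at 0.756 and 1.41 CPM. Erythroid-like cells, which should lack the gene, gave 0.508 CPM (0.138 to 1.30) in the wild-type library and 2.19 CPM (0.804 to 4.77) in the Crect lacZ library. The ectodermal level of Osr1 thus lay within the interval of the erythroid cells in both libraries and was read as background. The Crect lacZ interval is wide and rests largely on putative doublets. Without them the Osr1 UMIs of that library fell from 6 to 1 in erythroid cells and from 22 to 7 in ectoderm. In the wild-type library they stayed at 4 in erythroid cells and went from 15 to 11 in ectoderm. Endothelium-like cells had 0 Osr1 UMIs in the wild-type library and 3 in the Crect lacZ library.

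Osr2 was at 14.5 CPM (13.7 to 15.3) in wild-type mesenchyme and 25.6 CPM (24.6 to 26.6) in Crect lacZ mesenchyme. Ectoderm gave 7.46 CPM (6.30 to 8.76) and 9.01 CPM (7.58 to 10.6). Erythroid-like cells gave 1.14 CPM (0.523 to 2.17) and 2.92 CPM (1.26 to 5.76), so both ectodermal intervals lay above them. Without putative doublets the ectodermal Osr2 UMIs went from 148 to 124 in the wild-type library and from 141 to 102 in the Crect lacZ library. Those of erythroid-like cells went from 9 to 8 and from 8 to 5. With each cell thinned to 5000 UMIs, 2.46% (95% interval 1.61 to 3.59) of wild-type and 2.89% (1.84 to 4.30) of Crect lacZ ectodermal cells kept an Osr2 UMI. The shares of erythroid-like cells were 0.797% (0.0966 to 2.85) and 1.32% (0.161 to 4.70), and these intervals overlapped the ectodermal ones in both libraries. Unthinned, the shares were 8.23% and 10.9% in ectoderm and 2.78% and 4.61% in erythroid cells. The median depth was 15414 and 17073 UMIs in ectoderm and 30741.5 and 14019.5 UMIs in erythroid cells. Thinning left out 13 and 9 ectodermal cells and 1 erythroid cell in each library.

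**Figure D1:**
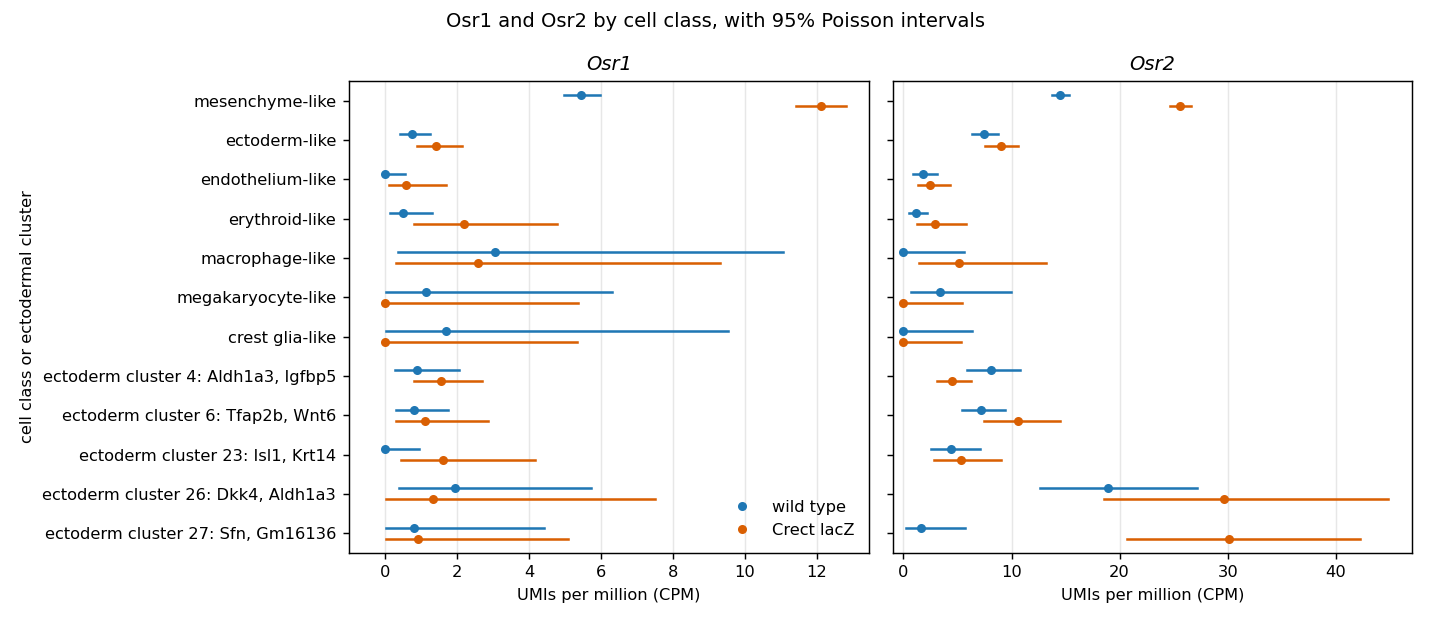
Level of Osr1 (left) and Osr2 (right) in CPM by cell class and, in the lower 5 positions, by ectodermal cluster. Points are libraries and bars are 95% Poisson intervals; Osr1 is highest in mesenchyme, and Osr2 is also above erythroid cells in ectoderm, most in cluster 26 and, in the Crect lacZ library, in cluster 27.

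Tested across both libraries, both genes were higher in mesenchyme than in ectoderm. UMIs were summed per library and class, and edgeR's quasi-likelihood test with library as a block was adjusted by Benjamini-Hochberg over 15254 genes. Osr1 was higher by 2.99 on the log2 scale (SE 0.193, adjusted p = 5.63e-08) and Osr2 by 1.22 (SE 0.132, adjusted p = 7.03e-06), each in 2 of 2 libraries. Of all genes tested, 7.95% were called higher in mesenchyme and 13.3% lower, where a call needed a fold of at least 2 with an adjusted p under 0.05. Without the library block edgeR's adjusted p for Osr2 was 0.0653, and its log2 difference was 0.90 in the wild-type library and 1.52 in the Crect lacZ library. For Osr1 these were 2.75 and 3.09, with an adjusted p of 0.0227 by edgeR without the block.

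The ectodermal Osr2 was uneven among the 5 ectodermal clusters. In the wild-type library it was highest in cluster 26, led by the Wnt inhibitor Dkk4. That cluster was at 18.9 CPM (12.7 to 27.1) in the wild-type library and 29.6 CPM (18.6 to 44.9) in the Crect lacZ library. Cluster 27, led by Sfn, a gene known from periderm and other covering epithelia, was the place where the libraries differed most. It had 2 Osr2 UMIs in 61 wild-type cells (1.59 CPM) and 33 in 44 Crect lacZ cells (30.1 CPM, interval 20.7 to 42.3), which overlaps cluster 26 of that library. Without putative doublets these counts were 2 and 18. The other 3 clusters ranged from 4.41 to 8.08 CPM in the wild-type library and from 4.51 to 10.6 CPM in the Crect lacZ library. Cluster 4, led by Aldh1a3, went the other way from the rest, with 8.08 CPM in the wild-type library and 4.51 CPM in the Crect lacZ library (ratio 0.558, 95% interval 0.349 to 0.886).

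Within the mesenchyme, Osr1 was concentrated in 1 of 14 sub-clusters. Sub-cluster 3 was led by Gsc (goosecoid), Ebf1 and Tcf15, all transcription factors. Its nasal marker score was the highest of the 14 (0.799, where 1 would mean that every marker peaks there) and its periocular score was 0.577. It was left unnamed because none of the nasal markers was among its 10 leading genes. It held 347 of the 512 wild-type UMIs (67.8%) and 836 of the 1247 Crect lacZ UMIs (67.0%) in 565 and 615 cells. Its level was 40.0 CPM (35.9 to 44.4) in the wild-type library and 69.0 CPM (64.4 to 73.9) in the Crect lacZ library, and after thinning 12.8% and 22.1% of its cells kept an Osr1 UMI. Averaged over the libraries, this was 36.3 times the median sub-cluster.

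Second in order came sub-cluster 6, led by Foxp2, Irx3 and Igf1, with Osr1 at 8.67 CPM (6.65 to 11.1) in the wild-type library and 20.0 CPM (17.04 to 23.3) in the Crect lacZ library. The lower library of sub-cluster 3 stood above the higher library of sub-cluster 6. From there down, each neighbour in the order overlapped the next in its range over the libraries. Sub-cluster 13 came next by its 4 wild-type UMIs and had 0 in the Crect lacZ library; it holds 49 and 14 cells of low depth led by globin genes. After it were sub-cluster 1, led by Cxxc4, at 2.84 and 6.07 CPM, and the maxillary-like sub-cluster 5 at 1.32 and 6.23 CPM. The remaining 9 sub-clusters were at 2.63 CPM or less in both libraries, apart from sub-cluster 2 at 2.84 CPM in the Crect lacZ library.

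Osr2 followed another order. It was highest in sub-cluster 5, named maxillary-like from Lhx6, Lhx8, Barx1, Dlx1 and Dlx2, patterning factors of the first pharyngeal arch. There it reached 99.3 CPM (91.9 to 107) in 487 wild-type cells and 137 CPM (129 to 145) in 433 Crect lacZ cells. These cells held 676 (45.9%) and 1100 (40.2%) of all Osr2 UMIs. After thinning, 26.7% of the wild-type and 36.7% of the Crect lacZ cells kept an Osr2 UMI.

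The chondrogenic-like sub-cluster 9 came second for Osr2, at 68.8 CPM (41.4 to 107) in its 20 wild-type cells and 59.3 CPM (53.9 to 65.1) in its 510 Crect lacZ cells. Osr1 was low in the same cells, with 0 UMIs in the wild-type library, which allows up to 10.9 CPM, and 14 UMIs (1.88 CPM) in the Crect lacZ library. Sub-cluster 11, led by the axon guidance gene Slit2, the receptor gene Lgr5 and the tendon factor Scx, followed with Osr2 at 37.6 CPM (31.8 to 44.2) and 48.8 CPM (40.8 to 58.0). The ranges over the libraries of these first 3 sub-clusters did not overlap the next in order. Those of the others did: Osr2 fell from 13.3 and 26.1 CPM in sub-cluster 10 to 2.71 and 4.09 CPM in the nasal-like sub-cluster 0. These ranges leave out counting error: in the wild-type library the Poisson interval of sub-cluster 9 overlapped those of sub-clusters 5 and 11. In the Osr1-rich sub-cluster 3, Osr2 was at 5.07 and 8.09 CPM.

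**Figure D2:**
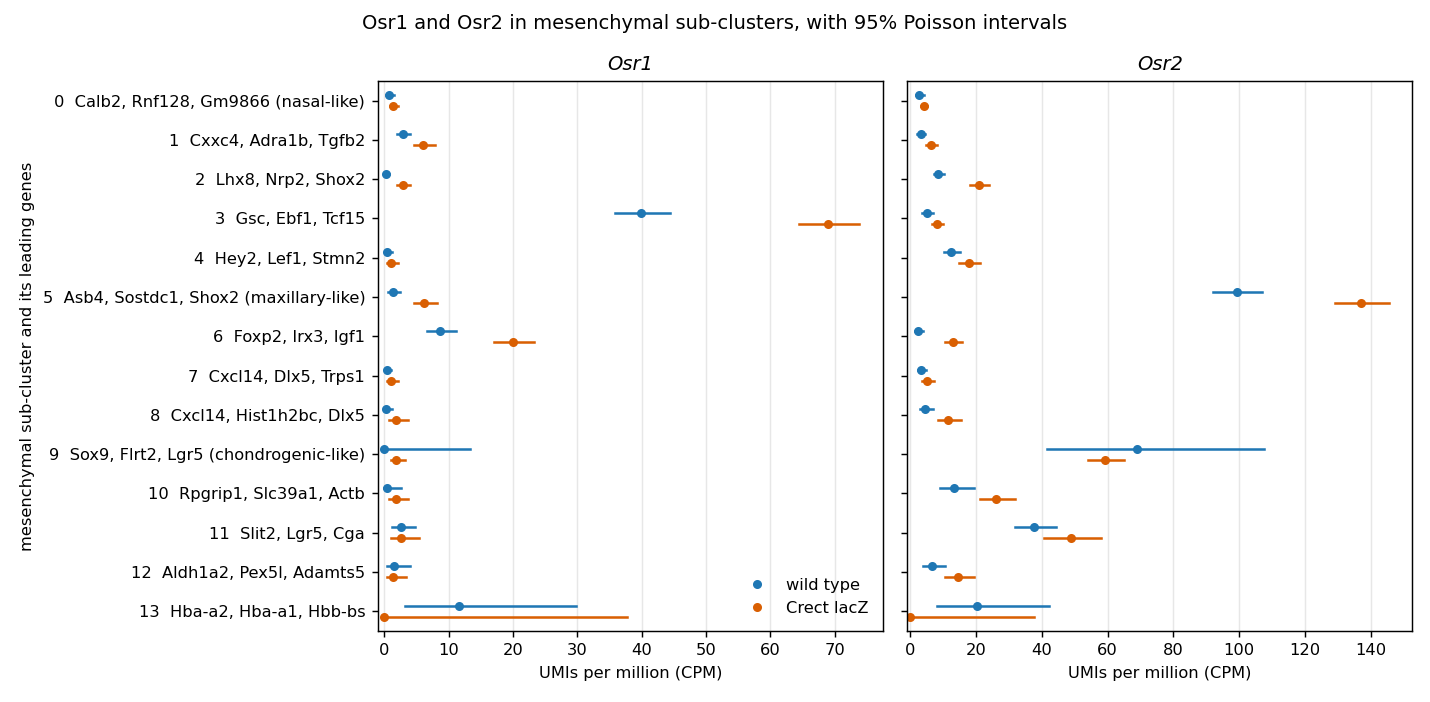
Level of Osr1 (left) and Osr2 (right) in CPM in the 14 mesenchymal sub-clusters, each labelled with its number and leading genes other than Osr1 and Osr2. Points are libraries and bars are 95% Poisson intervals; Osr1 peaks in sub-cluster 3 and then 6, and Osr2 in sub-clusters 5, 9 and 11.

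The maxillary-like cells were tested against all other mesenchyme in the same way, over 14475 genes. Osr2 was higher there by 3.41 on the log2 scale (SE 0.0671), with levels of 99.3 against 7.53 CPM in the wild-type library and 137 against 15.9 CPM in the Crect lacZ library. Its adjusted p from edgeR's quasi-likelihood test was written as 0, below the smallest number the software holds. Osr1 was lower, at 1.32 against 5.79 CPM and 6.23 against 12.6 CPM, a log2 difference of -1.23 (SE 0.186, edgeR adjusted p = 8.05e-10). Among all genes tested, 1.20% were called higher and 3.05% lower. With 4 sums the fit has 1 residual degree of freedom and took its spread from all genes together, so the spread of any 1 gene between the libraries has no part in these p-values; the same holds for the splits by Osr1 and by Osr2 below. Without the library block edgeR called neither gene (adjusted p = 0.104 for Osr2 and 0.957 for Osr1), and in the wild-type library alone the Osr1 difference was -2.01.

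Genes with sub-cluster profiles most like those of Osr1 and Osr2 were sought among 3435 genes, by Pearson's r of log2(CPM + 1) over the 12 sub-clusters with at least 30 cells in each library. For Osr1 they included Ebf1, Atp2b1 and Dicer1. The r of these 3 lay between 0.84 and 0.90 over both libraries. For Osr2 they were Sfrp2, Amot, Pnrc2, Asb4 and Psip1, with r between 0.77 and 0.86. Osr1 and Osr2 themselves had an r of -0.161 in the wild-type library and -0.0187 in the Crect lacZ library. Sub-clusters of 1 library share its depth and preparation, and the points number 12, so these values describe the profiles only.

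**Figure D3:**
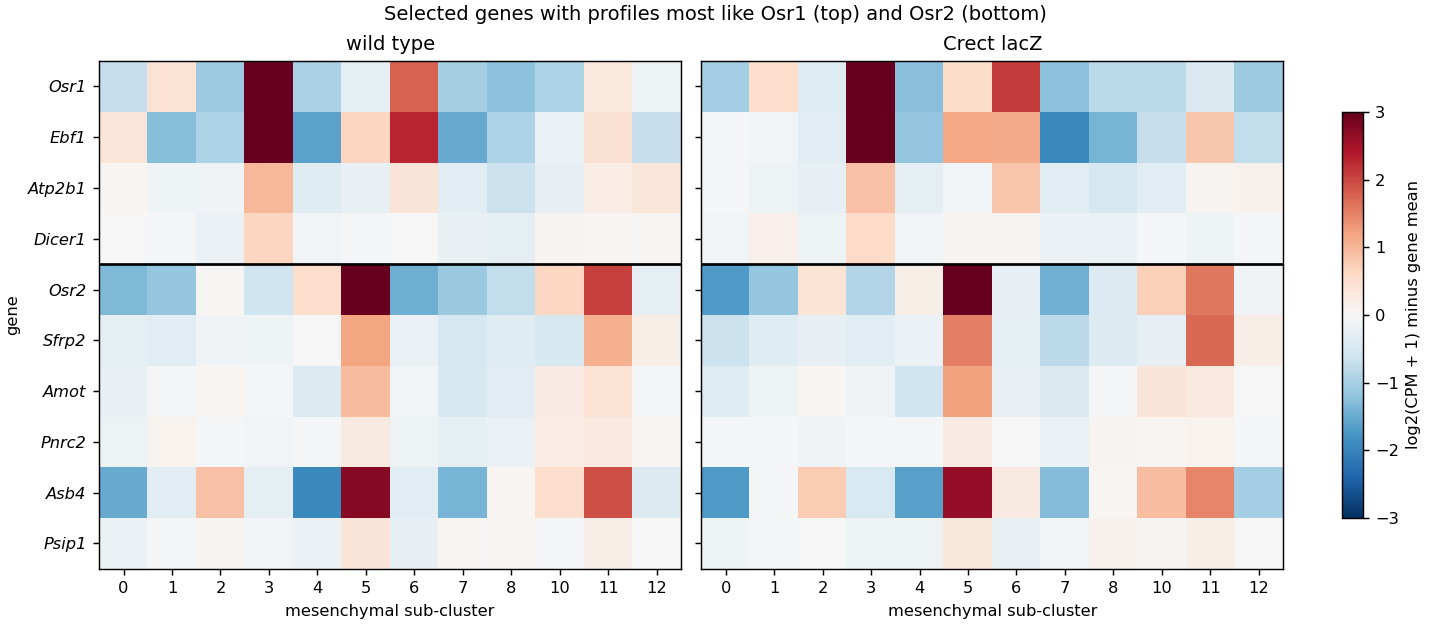
Profiles of Osr1 and Osr2, of 3 of the genes most like Osr1 and of the 5 most like Osr2, as log2(CPM + 1) minus the gene's mean, over 12 mesenchymal sub-clusters of the wild-type (left) and Crect lacZ (right) library. Red is above and blue below the gene's mean; the upper 4 genes peak in sub-cluster 3 in both libraries, and the lower 6 are highest in sub-cluster 5 or 11. Colours stop at 3 above or below the mean.

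Cells holding both transcripts were few once each cell was thinned. After thinning to 5000 UMIs, 114 of 6215 wild-type mesenchymal cells had Osr1, 297 had Osr2 and 4 had both, where 5.45 would come from independent detection (ratio 0.734, 95% interval 0.200 to 1.88). In the Crect lacZ library 220 of 5477 cells had Osr1, 476 had Osr2 and 15 had both, against 19.1 (ratio 0.785, interval 0.439 to 1.29). With the number from independence taken within each sub-cluster, the ratios were 1.61 (0.439 to 4.12) and 1.24 (0.692 to 2.04). Without thinning, 233 wild-type mesenchymal cells had Osr1, 632 had Osr2 and 23 had both (ratio 0.977, interval 0.619 to 1.47). In the Crect lacZ library 458 had Osr1, 1056 had Osr2 and 87 had both (ratio 0.992, interval 0.794 to 1.22). Cells without a UMI of a gene after thinning thus included carriers of it, also in the splits below. Each of these intervals includes 1, so neither an excess nor a deficit of cells with both was detectable at either depth.

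To describe what Osr1-bearing cells express, thinned mesenchymal cells with an Osr1 UMI were compared with those without, 114 against 6101 in the wild-type library and 220 against 5257 in the Crect lacZ library. A call here needed a fold of at least 1.5 with an adjusted p under 0.05. Of 12841 genes, 106 (0.825%) were called higher and 148 (1.15%) lower in Osr1-positive cells by edgeR; DESeq2 called 47 and 44. In the wild-type library 63.2% of the positive and 8.05% of the negative cells were in sub-cluster 3, and in the Crect lacZ library 61.4% and 9.04%. Levels given for single genes in it are CPM of the thinned cells, out of the UMIs of the tested genes and without edgeR's TMM factors.

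Among the genes with at least 20 CPM on average over the 4 sums, Foxc2 had the largest rise with Osr1. This forkhead gene, a regulator of mesenchymal and vascular development, was at 40.4 against 1.84 CPM in the wild-type library and 35.5 against 4.68 CPM in the Crect lacZ library (log2 3.44, SE 0.315, edgeR adjusted p = 6.77e-25). The forkhead genes Foxp1 (log2 1.87) and Foxp2 (log2 1.68) were called higher as well, while Foxf1 (log2 -2.72) and Foxf2 (log2 -1.33) were called lower. Also called higher were Gsc, at 353 against 43.5 CPM and 234 against 50.6 CPM, Ebf1 (log2 2.64), the nuclear receptor gene Nr2f2 (log2 2.42), the homeobox gene Barx1 (log2 2.33) and the microtubule protein gene Map1b (log2 2.12). The ligand gene Fam150b, at log2 2.91, and the factor gene Tcf15, at log2 1.94, complete the 10 largest rises at that level. Below it, Hic1 (log2 3.47) and Zfp536 (log2 3.43) were also called higher. Each gene named in this paragraph as called higher was so in 2 of 2 libraries.

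Genes lower with Osr1 and at 20 CPM or more on average were led by Lhx8, at 24.6 against 145 CPM in the wild-type library and 24.6 against 102 CPM in the Crect lacZ library (log2 -2.27, SE 0.181, edgeR adjusted p = 5.43e-33). Msx1, a homeobox gene of the distal facial mesenchyme, was the most abundant of them, at 420 against 1393 CPM and 267 against 997 CPM (log2 -1.85). The other 8 of the 10 largest at that level were the chemokine gene Cxcl14 (-2.18), the Wnt inhibitor gene Dkk1 (-2.09), Ndnf (-2.09), Eya1 (-1.94), the guidance receptor genes Robo2 (-1.90) and Unc5c (-1.82), Igfbp7 (-1.89) and Msx2 (-1.79). Below 20 CPM, Hey2 (-2.93), Foxf1 (-2.72) and Tmem30b (-2.46) had larger differences than Lhx8.

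Among the lists, 3 of the 5 tested periocular genes were higher with Osr1, among them Foxc2 and Foxc1 (log2 1.48), and none was lower. The list of Osr1 partners in intermediate mesoderm and heart, with 6 of 12 genes tested, ran the other way at a median log2 difference of -1.32, beside -0.03 for all genes tested. Of these 4 were lower, among them Eya1, Six2 (log2 -1.24) and Gata3 (log2 -1.12), known as regulators of the early kidney, and only Tbx18 was higher (log2 3.20), at no more than 12.7 CPM. DESeq2 did not call Six2. The sixth tested gene, Sall1, was not called (log2 -1.90), and the others, among them the kidney genes Pax2 and Pax8, had too few UMIs.

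Of the Hedgehog reception and response list, 0 of 14 tested genes were higher with Osr1 and 4 were lower, at a list median of -0.40. Ptch1, the Hedgehog receptor and a common target of the pathway, was at 12.3 against 53.6 CPM in the wild-type library and 28.2 against 56.5 CPM in the Crect lacZ library (log2 -1.32, SE 0.222, edgeR adjusted p = 3.76e-07). Foxf1, Foxf2 and Gli1 were lower too, but DESeq2 called none of these 3. The Osr2 pathway list was mixed, with 4 of 11 higher (Pax9, Dkk2, Sema3a and Tbx22) and 2 lower (Msx1 and Bmp4), at a median of 0.075. DESeq2 called none of the 4 higher ones. Pax9, a paired-box gene required for palate and teeth, was at 179 against 31.3 CPM in the wild-type library but 100 against 104 CPM in the Crect lacZ library, so its call rests on the wild-type cells.

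The lists of maxillary and nasal patterning, skeleton and connective tissue each had genes called in both directions with Osr1. Maxillary patterning had 2 of 9 higher (Barx1 and Gsc) and 3 lower (among them Lhx8 and Shox2), and nasal patterning 2 of 7 higher (among them Pax7) and 1 lower (Hey2). The cartilage, bone, tendon and joint list had 1 of 9 higher (Gdf5, a joint marker) and 1 lower (Runx2), and connective tissue 1 of 9 higher (Col6a3) and 1 lower (Tbx3). Of 10 S phase and 10 G2 and M phase genes none was called by edgeR in this comparison. Of the markers of ectoderm, endothelium, erythroid cells, macrophages and crest glia none was called either. Their summed levels on the positive and negative side were close for the erythroid list, at 3639 and 3531 CPM in the wild-type library and 1735 and 1691 CPM in the Crect lacZ library. The macrophage list summed to 15.8 against 9.15 CPM and 5.45 against 5.59 CPM, the endothelial list to 26.3 against 31.9 CPM and 36.4 against 29.1 CPM, the ectodermal list to 49.1 against 36.7 CPM and 53.6 against 46.7 CPM, and the crest glia list to 7.02 against 6.85 CPM and 6.36 against 11.1 CPM.

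Inside sub-cluster 3 alone, a comparison added after the data were seen, 72 Osr1-positive wild-type cells stood against 491 negative and 135 Crect lacZ cells against 475. There 26 of 9080 genes (0.286%) were called higher and 13 (0.143%) lower by edgeR, and DESeq2 called only Map1b higher and Msx1 and Ptn lower. Msx1 was at 157 against 468 CPM in the wild-type library and 100 against 234 CPM in the Crect lacZ library (log2 -1.40, SE 0.125, edgeR adjusted p = 4.03e-25). Ptn, a heparin-binding growth factor gene, was lower by log2 -0.73 (SE 0.0730).

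Gsc, the leading gene of sub-cluster 3, was not called within it (log2 0.27, edgeR adjusted p = 0.189). Called higher within it, in 2 of 2 libraries, were the adhesion gene Pcdh7 (log2 1.89), Barx1 (1.86), the ephrin receptor gene Epha3 (1.71), Hic1 (1.63), Igfbp5 (1.60), Foxc2 (1.37), the semaphorin receptor gene Nrp1 (1.20) and Ebf1 (0.85). Osr2 was not called there (log2 0.88, SE 0.648, edgeR adjusted p = 0.864).

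Osr2-positive mesenchymal cells, 297 against 5918 in the wild-type library and 476 against 5001 in the Crect lacZ library, were compared in the same way. Of 12752 genes, edgeR called 103 (0.808%) higher and 83 (0.651%) lower; DESeq2 called 49 and 27. The maxillary-like sub-cluster held 43.8% of the positive and 6.03% of the negative wild-type cells, and 33.4% and 5.48% of the Crect lacZ cells. The largest rise among genes with at least 20 CPM on average was that of Sostdc1, an inhibitor of Bmp and Wnt signalling, at 136 against 20.1 CPM in the wild-type library and 121 against 21.1 CPM in the Crect lacZ library (log2 2.64, SE 0.0983, edgeR adjusted p = 4.37e-151). Dlk1, a Notch-related ligand gene, was at 206 against 47.8 CPM and 345 against 84.8 CPM (log2 2.07).

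Most of the maxillary patterning list was higher with Osr2. Of 9 tested genes 8 were higher (among them Lhx6, Lhx8, Barx1, Dlx1, Dlx2, Shox2 and Meox2) and 1, Gsc, was lower, with a median log2 difference of 1.80 beside 0.0035 over all genes tested. DESeq2 did not call Dlx2 and Meox2. Shox2, required for the anterior palate, was at 133 against 32.6 CPM in the wild-type library and 46.3 against 17.5 CPM in the Crect lacZ library. Lhx6 was at 17.5 against 3.52 CPM and 27.3 against 4.36 CPM (log2 2.54, SE 0.238, edgeR adjusted p = 9.36e-24). The sub-cluster with the highest Osr2 level was named from 5 of these genes, so the 2 results are not separate evidence.

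Part of the Hedgehog list was higher with Osr2. Of 14 tested genes, 5 were called higher (Ptch1, Foxf1, Foxf2, Foxd1 and Foxd2) and 1 lower (Gas1), at a list median of 0.51. Ptch1 was at 104 against 50.2 CPM in the wild-type library and 109 against 50.2 CPM in the Crect lacZ library (log2 1.11, SE 0.0894, edgeR adjusted p = 2.46e-32). Foxf1 was at 45.2 against 6.46 CPM and 71.9 against 20.0 CPM. The forkhead genes of the list are known to respond to Sonic hedgehog in facial mesenchyme, while Gas1, at 206 against 339 CPM and 191 against 298 CPM, encodes a co-receptor that the pathway is known to repress. DESeq2 did not call Foxd1 and Foxd2, the first at up to 10.5 CPM and the second at up to 12.8 CPM.

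Of the Osr2 pathway list, 3 of 11 tested genes were higher and 1 lower, at a median of -0.11. Sfrp2, a secreted Wnt modulator gene, was at 152 against 62.9 CPM in the wild-type library and 218 against 103 CPM in the Crect lacZ library (log2 1.17, SE 0.0707, edgeR adjusted p = 2.12e-57). Tbx22, a T-box gene of the palate, was at 17.5 against 4.36 CPM and 16.8 against 6.69 CPM. Pax9 was at 58.0 against 32.8 CPM and 143 against 101 CPM (log2 0.59). Without sub-clusters 9 and 13 edgeR no longer called Pax9. Wif1, a Wnt inhibitor gene, was lower (log2 -1.72), though not by DESeq2.

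Genes lower with Osr2 were led by Pax7, a paired-box gene of the nasal mesenchyme, at 11.5 against 42.3 CPM in the wild-type library and 8.41 against 27.7 CPM in the Crect lacZ library (log2 -1.78, SE 0.198, edgeR adjusted p = 7.24e-17). Pax3 (-0.80) and Hey2 (-0.68, not by DESeq2) were the other 2 of 7 nasal genes called lower, and none was called higher. Further genes among the 10 largest with at least 20 CPM on average were Gsc (-1.47), Msx2 (-1.31), Cntfr (-1.18), the Notch target gene Hes1 (-1.14), Nbl1 (-1.09), Tcf15 (-1.04), Ackr3 (-1.02), Klf4 (-1.01) and Pmaip1 (-0.99); DESeq2 did not call Tcf15. Each was lower in 2 of 2 libraries.

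The lists of cell cycle phases, dissociation response and connective tissue had 0 genes called with Osr2 by edgeR. So had the markers of the 5 other cell types, and the erythroid list summed to 3465 against 3536 CPM in the wild-type library and 1732 against 1689 CPM in the Crect lacZ library. In the cartilage, bone, tendon and joint list 1 of 9 was higher, Col9a1, and in the periocular list 1 of 5 was higher, Eya2, and 1 lower; DESeq2 did not call Eya2.

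Within the maxillary-like sub-cluster alone, also added after the data were seen, 130 Osr2-positive wild-type cells were compared with 357 negative and 159 Crect lacZ cells with 274. Here 20 of 8227 genes (0.243%) were called higher and 22 (0.267%) lower by edgeR, and DESeq2 called only Sostdc1 and Dlk1, both higher. Sostdc1 was at 268 against 62.7 CPM in the wild-type library and 294 against 84.6 CPM in the Crect lacZ library (log2 1.96, SE 0.131, edgeR adjusted p = 1.70e-45). Dlk1 was at 352 against 153 CPM and 541 against 256 CPM. Lhx6 (log2 1.09), Foxf1 (1.03) and Barx1 (0.96) were called higher by edgeR, and Tgfb2 (-2.68), Kctd12 (-2.03), Cxcl14 (-1.79), Msx2 (-1.08) and Hes1 (-0.90) lower. Ptch1 was not called (log2 0.37, SE 0.151, edgeR adjusted p = 0.444): it was at 113 against 118 CPM in the wild-type library and 132 against 74.9 CPM in the Crect lacZ library.

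The difference between carriers of each gene was tested directly, with Osr1-only cells (110 wild-type and 205 Crect lacZ) against Osr2-only cells (293 and 461). Of 8759 genes, edgeR called 120 (1.37%) higher in Osr1-only cells and 127 (1.45%) higher in Osr2-only cells; DESeq2 called 30 and 23. Among genes with at least 20 CPM on average, Gsc had the largest difference on the Osr1 side, at 365 against 13.2 CPM in the wild-type library and 249 against 22.9 CPM in the Crect lacZ library (log2 3.93, SE 0.169, edgeR adjusted p = 9.71e-31). On the Osr2 side it was Foxf1, at 0 against 46.4 CPM and 3.96 against 74.8 CPM. Behind Gsc came Fam150b (3.77), Foxc2 (3.35, not by DESeq2), Tcf15 (3.02), Pax7 (2.73), Ebf1 (2.65), Foxp1 (2.34), Nr2f2 (2.33) and the growth factor pathway genes Igf1 (2.15) and Igfbp5 (2.09). Below 20 CPM, Zfp536 (4.29) and Hic1 (4.06) were beyond Gsc.

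Behind Foxf1, at 20 CPM or more on average, came Sostdc1 (-3.65), Tmem30b (-3.44), Shox2 (-3.14), the Wnt antagonist gene Frzb (-3.05), Lhx8 (-2.82), Inhba (-2.79), Dlk1 (-2.68), Foxf2 (-2.54) and Dkk1 (-2.46); DESeq2 did not call Shox2 and Foxf2. Among Hedgehog genes, 4 of 11 tested were higher in Osr2-only cells (Ptch1, Gli1, Foxf1 and Foxf2) and 2 in Osr1-only cells (Gas1 and Cdon, both co-receptor genes), at a list median of -0.33 beside -0.0023 over all genes. Ptch1 was at 12.9 against 107 CPM in the wild-type library and 27.7 against 113 CPM in the Crect lacZ library (log2 -2.32, SE 0.218, edgeR adjusted p = 1.22e-13), and Gas1 at 387 against 207 CPM and 309 against 190 CPM. DESeq2 called neither Gli1 nor Cdon.

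Maxillary patterning had 5 of 7 tested genes higher in Osr2-only cells (among them Lhx6, Lhx8, Dlx2 and Shox2) and Gsc in Osr1-only cells, at a median of -2.25. Nasal patterning had 3 of 7 higher in Osr1-only cells (among them Pax3 and Pax7) and Hey2 in Osr2-only cells, and 3 of 4 periocular genes (among them Foxc1 and Foxc2) were higher in Osr1-only cells. All 4 tested Osr1 partner genes, among them Eya1, Six2 and Gata3, were higher in Osr2-only cells. Msx1, which Osr2 is known to oppose in tooth mesenchyme, was also higher in Osr2-only cells, at 418 against 1022 CPM in the wild-type library and 266 against 672 CPM in the Crect lacZ library. Against cells without Osr2, Osr2-positive cells had Msx1 at 1003 against 1394 CPM and 653 against 998 CPM (log2 -0.53, edgeR adjusted p = 8.52e-39). That difference is under the 1.5-fold threshold of a call, so Msx1 was called lower with Osr1 and not with Osr2.

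**Figure D4:**
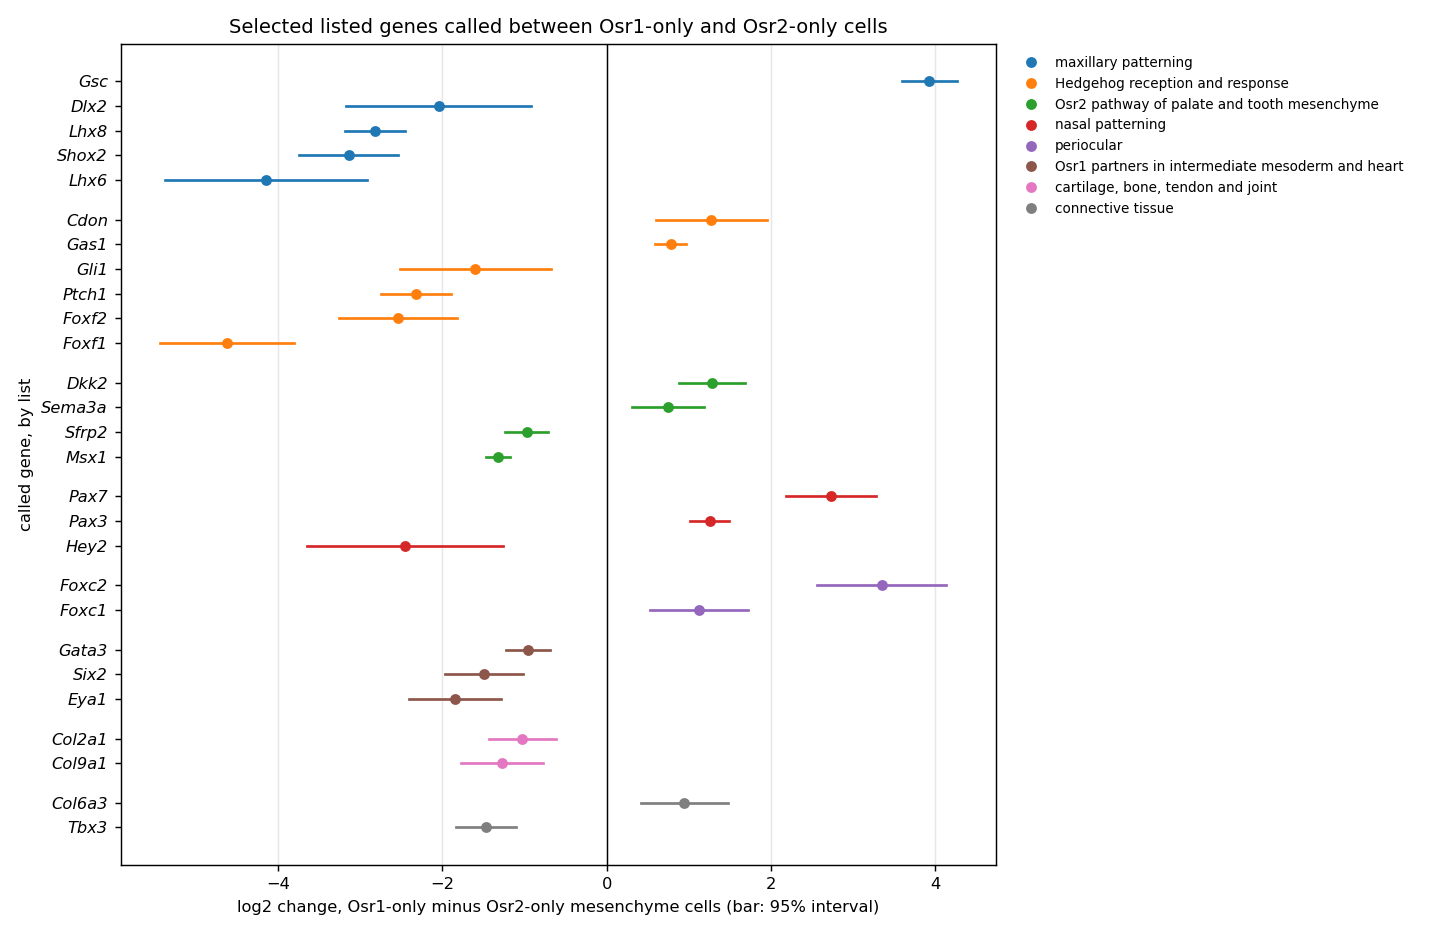
Log2 change of a selection of the listed genes called by edgeR between Osr1-only and Osr2-only mesenchymal cells, grouped by list. Points are estimates and bars 95% intervals; values above 0 are higher in Osr1-only cells, led by Gsc at 3.93, and values below 0 in Osr2-only cells, led by Foxf1 at -4.62.

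Both genes were higher in the Crect lacZ library than in the wild-type library, with no replicate check. In mesenchyme the ratio of CPM was 2.22 (95% interval 1.995 to 2.47) for Osr1 and 1.77 (1.65 to 1.89) for Osr2. The chondrogenic-like cells, nearly all from the Crect lacZ library, were rich in Osr2 but not in Osr1. Within the sub-cluster where each gene was highest the ratio was 1.73 (1.52 to 1.96) for Osr1 in sub-cluster 3 and 1.38 (1.25 to 1.52) for Osr2 in sub-cluster 5. In the mesenchyme outside sub-cluster 5 it was 2.11 (1.92 to 2.33) for Osr2. That set includes the chondrogenic-like cells, with 19 of its 624 wild-type and 442 of its 1471 Crect lacZ Osr2 UMIs. The 2.11 thus also holds the difference in makeup. In ectoderm the ratio was 1.21 (0.952 to 1.53) for Osr2. Genotype, dissection, depth and preparation cannot be told apart with 1 library each. The median depth of mesenchymal cells was 13449.5 UMIs in the wild-type library and 17455 in the Crect lacZ library.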

How the data were processed

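The deposited values are raw counts: UMIs for each gene in each cell barcode, without scaling. Cell Ranger 2.0 and build mm10 are named per the submitters' processing notes, and the labels name the 10x Genomics kit as 3' v2. The barcode filter and the use of strand are not given in the sources used here. Osr1, Osr2 and the gene lists were chosen with earlier results of these data known. Cells with at most 10% mitochondrial UMIs were kept. Clustering used 2000 variable genes, z-scores within each library, 30 principal components, 15 neighbours and leidenalg 0.10.2 at resolution 1.0. Mesenchyme was clustered again with 20 components at 0.8. Held out were 91 genes: Osr1, Osr2 and the listed genes that were not naming markers. Listed genes that were naming markers, such as Lhx6, Pax7, Foxc2 and Sox9, stayed in. Clusters were named from marker lists, by score thresholds set after the data were seen. A sub-cluster name also needed at least 1 of the markers among its 10 leading genes. Levels are counts per 1000000 UMIs (CPM) with exact Poisson intervals, and shares have exact Clopper-Pearson intervals. For splits by Osr1 or Osr2 each cell was thinned to 5000 UMIs. Counts were summed per library and side, 4 sums a fit, and tested with edgeR 4.0.16 (TMM, filterByExpr, quasi-likelihood, library as block, Benjamini-Hochberg over all genes tested); the split gene itself was left out. DESeq2 1.42.0 was an alternative. Cells paired by library come from the same pool, which is the reason for the block. Scrublet in scanpy 1.11.5 scored doublets for an alternative: 175 wild-type (2.21%) and 369 Crect lacZ cells (5.52%), the latter by highest score because the automatic threshold found 3. With 1 library per genotype, the genotypes were compared without a test, and each fit had 1 residual degree of freedom.

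Named genes were up to 10 per direction with the largest fold among called genes with the same direction in each library and at least 20 CPM on average, and called genes of the lists; others named were chosen after their values were seen. On simulated counts with 200 changed genes, edgeR recovered 75% of 2-fold and 92% of 4-fold changes for mesenchyme against ectoderm (15065 genes), 78% and 92% for maxillary-like cells (14536 genes), 42% and 79% for the Osr1 split (12814 genes), 69% and 82% for the Osr2 split (12762 genes) and 60% and 91% for Osr1-only against Osr2-only cells (8740 genes). Recovery meant an adjusted p under 0.05 in the right direction, without the fold threshold of a call. These shares are therefore not those of the calls reported here. Unchanged genes under the same adjusted p numbered 2, 4, 4, 11 and 2, in that order of comparisons. Both simulated libraries had the same gene shares, unlike the data. Gene positions and coding sequence came from GENCODE vM21, in which 27645 of 27998 gene IDs (98.74%) were found. Some genes of the lists and some sequence are not reported here.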

Additional observations from a re-analysis of the deposited data

Results flagged for a closer look

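The barcodes left out for more than 10% mitochondrial UMIs also held transcripts of both genes, above the 3 UMIs that a count of 0 allows. In the wild-type library 57 such barcodes held 4 Osr2 UMIs (11.7 CPM, 95% Poisson interval 3.18 to 29.9). In the Crect lacZ library 207 barcodes held 22 Osr1 UMIs (16.1 CPM, interval 10.1 to 24.3) in 14 barcodes and 18 Osr2 UMIs (13.1 CPM, interval 7.79 to 20.8) in 13. The Osr1 level of these Crect lacZ barcodes was not below that of the kept cells of the library (9.87 CPM), and their Osr2 level was below it (21.7 CPM).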

How the results depend on the processing

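The block for library pairs the sums of 1 pool, and taking it out moved results most. Without the block Osr2 was no longer called in mesenchyme against ectoderm (log2 1.29), nor Osr2 (3.37) or Osr1 (-1.21) in maxillary-like against other mesenchyme. The counts of genes called higher and lower then fell to 7 and 3 for the Osr1 split, 1 and 0 for the Osr2 split (387 genes had an unadjusted p under 0.05, and DESeq2 called 49 and 27) and 24 and 23 for Osr1-only against Osr2-only cells. DESeq2 gave 47 and 44, 49 and 27, and 30 and 23. Thinning to 3000 UMIs gave 61 and 82 for the Osr1 split and 68 and 68 for Osr1-only against Osr2-only cells, and without thinning the counts were 240 and 348, 186 and 125, and 275 and 351. Fewer cells or UMIs are compared in the first case and more in the second. Restricted to sub-cluster 3 the Osr1 split gave 26 and 13, and restricted to the maxillary-like sub-cluster the Osr2 split gave 20 and 22. Leaving out 1 library in turn gave log2 differences without a test: 2.75 to 3.09 for Osr1 and 0.90 to 1.52 for Osr2 in mesenchyme against ectoderm, and -2.01 to -0.96 for Osr1 and 3.15 to 3.76 for Osr2 in maxillary-like against other mesenchyme. Without the wild-type library Pax9 reversed in the Osr1 split, at log2 -0.061, and without the Crect lacZ library it was at 2.48. The Crect lacZ over wild-type ratio of ectodermal Osr1 went from 1.86 to 0.857 without putative doublets, and that of mesenchymal Osr2 from 1.77 to 1.91 without mitochondrial and ribosomal protein genes. The cause was not tested for any of these. RLE size factors, no filter on low counts, removal of doublets, a 5% mitochondrial limit, another thinning seed, Leiden resolution 0.5 and clustering on all genes, each where it applied, moved no log2 difference of Osr1 or Osr2 across the threshold and no count by more than 1.5 times. Of 1565 values of named genes under alternatives, 1326 counted as the same, 210 kept their direction but not the call, 28 moved and 1 reversed. The same ones kept their direction and call, except for values from a single library, which have no call. These were 107 without the Crect lacZ library and 126 without the wild-type library. They counted as the same if close to the joint log2 difference, a lenient rule because the joint value tends to lie between the libraries. Of the 210, 96 were without the block and 43 under DESeq2. Depth limits Osr1 most: with 512 UMIs in the wild-type library, levels outside sub-clusters 3 and 6 rest on 31 UMIs or fewer per sub-cluster.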

Other observations

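Jun, an immediate early gene of the dissociation response list, was the 1 of its 9 tested genes called in the Osr1 split. It was higher in Osr1-positive mesenchyme, at 378 against 178 CPM in the wild-type library and 268 against 119 CPM in the Crect lacZ library (log2 1.11, SE 0.0854, edgeR adjusted p = 2.95e-35). Inside sub-cluster 3 alone Jun was not called, at 432 against 431 CPM and 295 against 276 CPM (log2 0.05, SE 0.0931, edgeR adjusted p = 0.986). The list's median log2 difference over all mesenchyme was -0.12.

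Barx1 and Tbx22 were higher with either gene. Barx1 was at log2 2.33 (SE 0.266) with Osr1 and 2.04 (SE 0.210) with Osr2, and Tbx22 at 1.66 (SE 0.346) and 1.61 (SE 0.247). The 2 comparisons share most of their negative cells. Pax9 was called higher with either gene too, but its call with Osr1 rests on the wild-type cells. Between Osr1-only and Osr2-only cells Tbx22 was not called (log2 0.24, 95% interval -0.41 to 0.89, edgeR adjusted p = 0.865). Nor was Barx1 (log2 0.52, 95% interval 0.010 to 1.02, edgeR adjusted p = 0.405), at log2 -0.080 in the wild-type and 0.787 in the Crect lacZ library.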
